A study of Mus musculus with 8 samples.

Results

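Transcripts of 8 cytokine and receptor genes that pass signals from myeloid cells to T and natural killer (NK) cells were examined in tumor-associated macrophages (TAMs). They were the IL-12 family subunits Il12a, Il12b, Il23a, Il27 and Ebi3, the cytokine Il15 with its receptor chain Il15ra, and Il6. The set was chosen with earlier results of these data known and was matched by gene name, and all 8 were present among the 26939 genes of the joined count tables.

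IL-12 family cytokines are made of paired chains that are encoded by separate genes. The p40 chain of Il12b joins the p35 chain of Il12a to form IL-12, which drives type 1 T cells and interferon gamma, or the p19 chain of Il23a to form IL-23, which maintains type 17 T cells. IL-27 is made of the p28 chain of Il27 and the chain encoded by Ebi3. IL-15 is carried and presented at the cell surface by the receptor chain of Il15ra and sustains NK cells and CD8+ T cells, while IL-6 is an inflammatory cytokine that acts through the same signaling chain, gp130, as IL-27. Myeloid cells induce Il12b and Il6 strongly after Toll-like receptor (TLR) ligation.

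Bulk RNA-seq was available for TAMs from EO771 tumors, a mouse breast cancer line grown in the mammary fat pad of female mice on a C57BL/6J background. Live cells positive for CD45, CD11b and F4/80 and negative for Gr-1 were sorted at day 21. The 4 groups, of 2 libraries each, were control and αMARCO-treated TAMs from wild-type (WT) mice and from mice homozygous for the 3d allele of Unc93b1 (Unc93b1 3d/3d, called 3d/3d here). The 3d mutation is present in all cells of these mice, and their UNC93B1 cannot take endosomal TLRs such as TLR9 to the endosome. αMARCO is the rat IgG1 clone ED31 against the scavenger receptor MARCO, given at 100 µg per dose every 3 days from day 3 to day 12. The labels name the control mice untreated or PBS and the methods name an isotype antibody, so which they received is not settled, and the genotype field of 1 mutant control library reads 3d/4d where its title reads 3d/3d. Control libraries were pooled from several mice. No source used here says that the libraries of a group came from separate experiments, so P values measure the spread between these libraries.

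The 8 libraries held between 15182618 and 26411936 counts, and 3 counts, taken as the detection floor, came to 0.114 to 0.198 CPM, counts scaled to the size of the library. This range uses the plain library totals. The CPM of genes also carry a normalization factor per library (TMM), so the range is approximate for them. The floor covers counting error only. The 3d/3d αMARCO libraries stood apart from each other, with a median absolute log2 difference of 0.54 and 23.7% of 16620 genes differing by more than 2-fold, against 0.15 to 0.20 and 4.66% to 8.42% in the other groups. Fold changes of the 8 genes that rest on these libraries are therefore given with and without each of them. Macrophage markers were abundant throughout, with a summed level of 8485 to 12483 CPM for 9 genes. T cell markers, which the sort should remove, summed to 84.7 and 98.4 CPM in WT control and to between 3.66 and 16.1 CPM in the other 6 libraries. Unc93b1 itself had 849 and 966 CPM in WT control and 539.5 and 660.2 CPM in 3d/3d control, a log2 fold change of 0.58 (SE 0.12, adjusted P = 0.0125, edgeR). Its level does not check the genotype, because the mutation changes a base and does not remove the transcript.

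The upstream sequences of the genes are shown for the member with the widest range of levels, Il12b, and for the members that held a kappaB motif, the element bound by the NF-κB factors that act below TLRs. RefSeq promoter sequences on GRCm38.p6 were matched for 5 of the 8 genes (Il12a, Il12b, Ebi3, Il15ra and Il6, 7 start sites in all), and the 250 bases before each start were searched on both strands. The Il12b sequence lies at chr11:44399813-44400062, that of Il6 at chr5:30012864-30013113 and that of Ebi3 at chr17:55952373-55952622, all on the plus strand. Capitals mark motif matches.
Il12b: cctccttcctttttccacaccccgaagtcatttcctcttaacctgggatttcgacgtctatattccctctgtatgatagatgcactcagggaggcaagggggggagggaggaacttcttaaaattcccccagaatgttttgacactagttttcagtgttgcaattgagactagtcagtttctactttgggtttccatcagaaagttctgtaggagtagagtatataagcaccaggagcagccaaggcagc
Il6: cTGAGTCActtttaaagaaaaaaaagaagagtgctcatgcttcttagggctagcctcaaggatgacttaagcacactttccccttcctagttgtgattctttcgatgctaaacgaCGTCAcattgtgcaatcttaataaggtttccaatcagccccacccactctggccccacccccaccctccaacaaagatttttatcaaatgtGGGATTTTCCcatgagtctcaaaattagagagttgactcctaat
Ebi3: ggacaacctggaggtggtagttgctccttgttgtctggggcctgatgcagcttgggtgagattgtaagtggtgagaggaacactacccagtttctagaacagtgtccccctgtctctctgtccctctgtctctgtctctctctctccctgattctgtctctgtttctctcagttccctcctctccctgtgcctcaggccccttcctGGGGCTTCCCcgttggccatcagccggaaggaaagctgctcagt
The kappaB motif occurred at positions -44 to -35 from the start in both Il6 and Ebi3, and in 7.25% of 32851 mouse promoters of the same length. Il6 also held the AP-1 motif TGANTCA (6.75% of promoters) at -249 to -243 and the CRE half-site TGACG (17.8%) at -135 to -131, read here on the opposite strand. The second start of Il15ra held the same pair of motifs, at -30 to -24 and -78 to -74. The interferon-stimulated response element, ISRE (2.98% of promoters), the STAT motif TTCNNNGAA (7.02%) and TATAAA (12.4%) were found in none of the 7 windows. The windows of Il12b and Il12a held none of the 6 motifs. Only strings that fit the motif letters exactly were sought, so variants of these elements would be missed.

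In the annotation of the tables, which follows GRCm38, Il12b (ENSMUSG00000004296) lies on chromosome 11 at 44400063 to 44414033, Il12a on chromosome 3 at 68690644 to 68698547 and Il23a on chromosome 10 at 128296139 to 128298752. Il27 lies on chromosome 7 at 126589010 to 126594941 and Ebi3 on chromosome 17 at 55952623 to 55957021. Il15 is on chromosome 8 at 82331632 to 82403222, Il15ra on chromosome 2 at 11705290 to 11734317 and Il6 on chromosome 5 at 30013114 to 30019981. Ebi3 overlaps the antisense gene Gm16712 by 2251 bases, and Il27 overlaps Apobr, on the opposite strand, by 103 bases. Whether reads were counted by strand was not given in the sources used here, so the counts of Ebi3 and Il27 are uncertain to that extent. Gm16712 had 162 to 438 counts per library and Apobr 2481 to 5564.

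To ask which chains the TAMs transcribed most, levels were compared as TPM, which scales counts to gene length and to the library. Ebi3 ranked highest in all 4 groups, with a mean of 153 ± 16.4 TPM in WT control, 97.7 ± 3.20 in 3d/3d control, 125 ± 18.0 in WT αMARCO and 80.7 ± 5.80 in 3d/3d αMARCO (SD, n = 2 each). In WT control it was followed by Il27 (75.6 TPM), Il15 (59.9 TPM), Il12b (34.7 TPM), Il15ra (21.1 TPM), Il6 (6.11 TPM) and Il23a (2.06 TPM), and no neighbors in this order overlapped. Il12b stood below Il15ra in the other 3 groups, at 1.16 TPM in 3d/3d control, 3.53 TPM in WT αMARCO and 0.874 TPM in 3d/3d αMARCO. In the last of these groups Il27 overlapped with Il15, and Il6, Il12b and Il23a could not be ordered beyond their spread. The same order was obtained from the authors' FPKM.

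**Figure D1:**
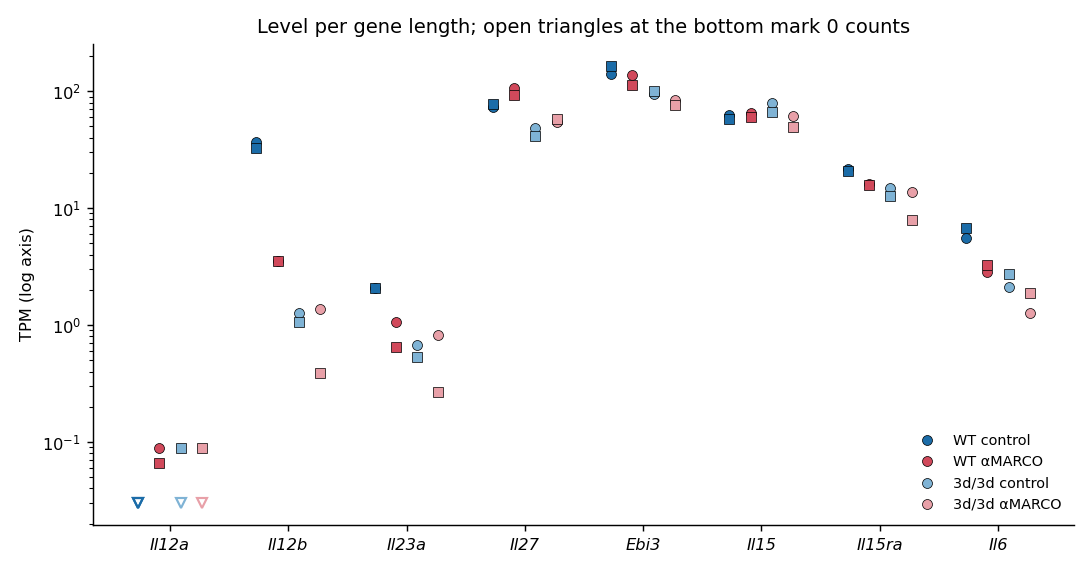
TPM on a log axis for the 8 genes (x axis), with a point for each library, colored by group. Circles are replicate 1, squares are replicate 2 and open triangles mark libraries with 0 counts. Il12b reached 36.6 and 32.7 TPM in WT control and at most 3.56 TPM elsewhere, while Ebi3 lay at the top in every group.

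Il12a, the p35 chain that p40 needs to form IL-12, was at or below detection. It had 0 counts in both WT control libraries and 1 count in both WT αMARCO libraries, and 0 and 1 count in each 3d/3d group. Every library was thus under the floor of 3 counts, and the gene was not tested. In the 4 libraries with 0 counts, with Il12a set at that floor, the TPM of Il12b was at least 143 and 120 times that of Il12a in WT control, 3.75 times in replicate 1 of the mutant control and 5.48 times in replicate 1 of mutant αMARCO.

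The first comparison asked how TAMs that lack endosomal TLR function differ in these genes without αMARCO. In control TAMs, 6 of the 8 genes, namely Il12b, Il23a, Il27, Ebi3, Il15ra and Il6, were higher in WT than in 3d/3d, and Il15 did not pass the test. A gene was called when edgeR's quasi-likelihood test gave it a Benjamini-Hochberg adjusted P of 0.05 or less and a log2 fold change of 0.5 or more in either direction. Of 15600 genes tested, 13% were called, 6.58% higher and 6.4% lower in WT. The median log2 fold change of the 7 genes tested was 0.84, against 0.00 for all genes.

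Il12b showed the widest difference. It had 26.1 and 23.2 CPM in WT control (496 and 418 counts) and 0.817 and 0.711 CPM in 3d/3d control (13 and 14 counts). The groups were far apart, and the log2 fold change was 4.99 (SE 0.23, adjusted P = 3.36e-06), or 31.8-fold. It was between 4.88 and 5.09 with any library left out. Il23a, the p19 partner of p40 in IL-23, was much scarcer, with 1.69 and 1.66 CPM in WT control and 0.503 and 0.406 CPM in 3d/3d control. These rest on 32 and 30 counts against 8 and 8, and the groups did not overlap (log2 fold change 1.86, SE 0.53, adjusted P = 0.0377). The call was lost under DESeq2 (adjusted P = 0.104) and in edgeR with all 8 libraries in 1 model (0.177). With any library left out, the log2 fold change was between 1.7 and 2.01.

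Both chains of IL-27 were higher in WT by a smaller amount. Il27 had 27.3 and 28.5 CPM in WT control and 16.4 and 14.4 CPM in 3d/3d control (log2 fold change 0.84, SE 0.14, adjusted P = 0.00425). Ebi3 had 60.1 and 69.5 CPM against 36.8 and 39.6 CPM (log2 fold change 0.75, SE 0.11, adjusted P = 0.00277). The groups overlapped for neither gene.

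IL-15 and its receptor chain differed in their pattern. Il15 had 51.3 and 46.7 CPM in WT control and 59.1 and 51.0 CPM in 3d/3d control, which overlapped (log2 fold change -0.18, SE 0.11, adjusted P = 0.293). Il15ra had 34.6 and 33.1 CPM in WT control and 21.7 and 19.1 CPM in 3d/3d control, with no overlap (log2 fold change 0.72, SE 0.13, adjusted P = 0.00608). The ratio of Il15 to Il15ra in TPM was accordingly 2.92 and 2.77 in WT control and 5.36 and 5.26 in 3d/3d control. Il6 was higher in WT, at 4.85 and 5.88 CPM against 1.70 and 2.23 CPM (log2 fold change 1.42, SE 0.31, adjusted P = 0.0143). This log2 fold change was between 1.25 and 1.63 with any library left out, and lowest without replicate 1 of 3d/3d control. In a fit of all 8 libraries in 1 model, only Il12b kept its call (adjusted P = 0.000686), and the other 5 had adjusted P values of 0.0713 to 0.177.

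**Figure D2:**
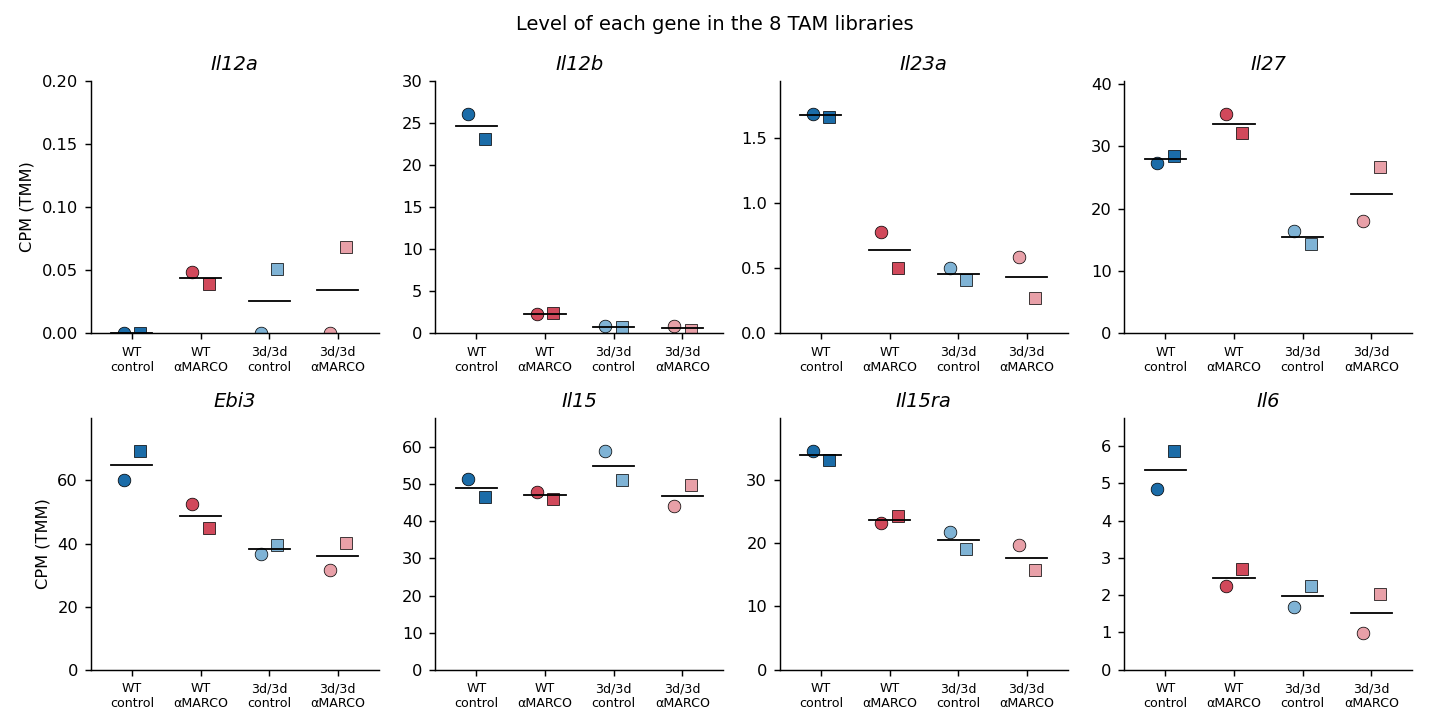
CPM (linear axes from 0, scaled per gene) of each of the 8 genes in every library. Circles are replicate 1, squares are replicate 2 and bars are group means. Il12b, Il23a, Ebi3, Il15ra and Il6 had their highest 2 values in WT control, Il27 its highest 2 in WT αMARCO, and Il15 lay between 44.0 and 59.1 CPM in all 8 libraries.

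The second comparison asked what αMARCO changed in WT TAMs. It uses the same WT control libraries as the comparison of genotypes, so the values of both depend on them. Il12b, Il23a, Il15ra and Il6 fell with αMARCO, whereas Il27, Ebi3 and Il15 were not called. Of 15630 genes tested, 20.7% were called, 11.8% lower and 8.91% higher with αMARCO. The median log2 fold change of the 7 genes was -0.51, against -0.01 for all genes.

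Il12b went from 26.1 and 23.2 CPM in WT control to 2.24 and 2.39 CPM in WT αMARCO. Its log2 fold change was -3.40 (SE 0.17, adjusted P = 1.93e-05), a 10.6-fold lower level, and it lay between -3.49 and -3.32 with any library left out. Both WT αMARCO values lay above those of 3d/3d control (0.817 and 0.711 CPM), a difference that crosses genotype and treatment and was not tested. Il23a had 0.777 and 0.502 CPM in WT αMARCO (16 and 13 counts; log2 fold change -1.39, SE 0.47, adjusted P = 0.0429). As between the genotypes, this call was lost under DESeq2 (adjusted P = 0.133) and in edgeR with all 8 libraries in 1 model (0.221). It was also lost in edgeR with the replicate number as a block (0.0584). With any library left out, the log2 fold change was between -1.71 and -1.1. The TPM of Il12b over that of Il23a, 17.7 and 15.9 in WT control, was 3.28 and 5.45 in WT αMARCO.

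Il6 had 2.24 and 2.70 CPM in WT αMARCO, below both WT control libraries (log2 fold change -1.10, SE 0.26, adjusted P = 0.0102). Its log2 fold change was between -1.25 and -0.96 with any library left out. The call was lost in edgeR with all 8 libraries in 1 model (adjusted P = 0.184). Il15ra had 23.1 and 24.2 CPM in WT αMARCO, also with no overlap. Its log2 fold change of -0.51 (SE 0.10, adjusted P = 0.00395) lay next to the threshold of 0.5 and was -0.50 with DESeq2's size factors, -0.49 with a filter of 10 counts in every library, and -0.48 and -0.47 without replicate 1 of WT control and of WT αMARCO, all of which end the call. Il15 had 47.9 and 46.1 CPM (log2 fold change -0.05, SE 0.09, adjusted P = 0.684).

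The chains of IL-27 were not called, and their values lay on opposite sides of WT control. Il27 had 35.2 and 32.1 CPM in WT αMARCO, above the 27.3 and 28.5 CPM of WT control (log2 fold change 0.28, SE 0.10, adjusted P = 0.0570). Ebi3 had 52.5 and 45.0 CPM, below the 60.1 and 69.5 CPM of WT control (log2 fold change -0.40, SE 0.11, adjusted P = 0.0161), which passed the threshold on P but not that on fold change. Without replicate 1 of WT control or replicate 1 of WT αMARCO this log2 fold change was -0.51. Without replicate 2 of either group it was -0.3. The TPM of Ebi3 over that of Il27 was 1.92 and 2.13 in WT control and 1.30 and 1.22 in WT αMARCO. In 3d/3d TAMs it was 1.96 and 2.41 in control and 1.55 and 1.32 with αMARCO, so the ratio was lower in each of the 4 αMARCO libraries than in each of the 4 control libraries. The difference in this ratio was not tested. In the fit of all 8 libraries, only Il12b of the 7 genes kept its call for αMARCO in WT (adjusted P = 0.0227).

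The genotypes were also compared under αMARCO. None of the 15722 genes tested was called by edgeR (0.0%), and 1076 had an unadjusted P under 0.05, while DESeq2 called 214. Of the 7 genes only Il12b had an unadjusted P under 0.05 (0.0231, adjusted 0.665). Il12b had 2.24 and 2.39 CPM in WT αMARCO and 0.858 and 0.340 CPM in 3d/3d αMARCO (19 and 5 counts), so the groups did not overlap although the log2 fold change of 1.90 (SE 0.59) was not called. It was 2.75 without replicate 1 of 3d/3d αMARCO and 1.43 without replicate 2. Such fits hold no spread of their own for the group left with 1 library, so gene by gene only fold changes are given from them.

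The remaining genes depended on the same pair of libraries. Il27 had 17.9 and 26.6 CPM in 3d/3d αMARCO, both below the WT αMARCO libraries (log2 fold change 0.60, SE 0.26, adjusted P = 0.709). Its log2 fold change was 0.91 without replicate 2 and 0.34 without replicate 1. Ebi3 had 31.8 and 40.2 CPM (log2 fold change 0.44, SE 0.21, adjusted P = 0.709), which became 0.62 without replicate 2 and 0.28 without replicate 1. Il15ra had 19.6 and 15.8 CPM (0.42, SE 0.22, adjusted P = 0.709), which became 0.59 without replicate 1 and 0.27 without replicate 2. The low-count genes moved most with the library left out. Il6 had 0.994 and 2.04 CPM (0.72, SE 0.51), which became 0.28 without replicate 1 and 1.31 without replicate 2. Il23a had 0.587 and 0.272 CPM (0.53, SE 0.71), which became 1.21 and 0.11. Il15 had 44.0 and 49.8 CPM, which overlapped with WT αMARCO (0.01, SE 0.18, and -0.08 and 0.10 without replicates 1 and 2).

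With αMARCO against control in 3d/3d TAMs, no gene was called among 15428 tested (0.0%) by edgeR, 744 had an unadjusted P under 0.05, and DESeq2 called 60. The 6 genes tested had adjusted P values between 0.823 and 0.938, and Il23a did not pass the filter on low counts. Il12b had 0.817 and 0.711 CPM in control and 0.858 and 0.340 CPM with αMARCO, which overlapped (log2 fold change -0.31, SE 0.76). It was -1.13 without replicate 1 of αMARCO and 0.17 without replicate 2. Il27 had 16.4 and 14.4 CPM in control and 17.9 and 26.6 CPM with αMARCO (log2 fold change 0.54, SE 0.29, adjusted P = 0.823). Its log2 fold change was 0.81 without replicate 1 of αMARCO and 0.22 without replicate 2. The other 4 genes were not called either. Ebi3 (-0.08, SE 0.24) was 0.09 without replicate 1 and -0.27 without replicate 2, and Il6 (-0.38, SE 0.59) was 0.06 and -0.98. Il15 (-0.22, SE 0.22) was -0.13 and -0.32, and Il15ra (-0.20, SE 0.25) was -0.35 and -0.05.

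**Figure D3:**
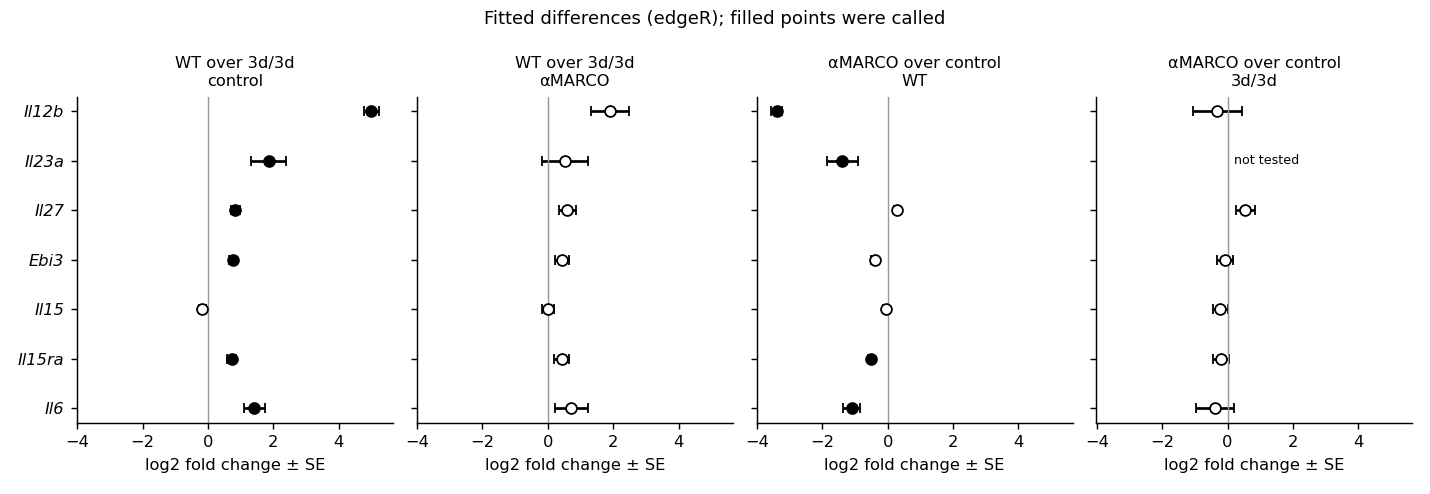
Log2 fold change with its SE from edgeR (x axis) for 7 genes (y axis) in 4 comparisons. Il12a was not tested in any of them, and Il23a was not tested for αMARCO over control in 3d/3d TAMs. Filled points were called (adjusted P of 0.05 or less, log2 fold change of 0.5 or more in either direction). In control TAMs 6 points were called on the WT side, 4 were called lower with αMARCO in WT, and none was called in either comparison that holds the 3d/3d αMARCO libraries, where the SE bars are wider.

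Whether the αMARCO effect differed between the genotypes was tested as an interaction in a model of all 8 libraries. Among 16620 genes, edgeR called 0 (0.0%) and gave 2549 an unadjusted P under 0.05, while DESeq2 called 211. For Il12b the effect in WT was lower than that in 3d/3d by a log2 difference of -3.14 (SE 0.53, unadjusted P = 0.000334, adjusted P = 0.281). Its adjusted P was 0.000475 in DESeq2 (-3.11) and 0.00251 in edgeR without the filter on low counts (-3.12), a fit that called 152 genes. The difference was -2.27 without replicate 1 of 3d/3d αMARCO and -3.59 without replicate 2. Among the fits of all 8 libraries, the call thus depended on the tool and the filter. The direction held in all of the fits given here for Il12b. The other 6 genes had differences between -1.36 (Il23a, SE 0.84) and 0.17 (Il15, SE 0.21) with adjusted P values of 0.409 to 0.665. Among them, Il27 (-0.26, SE 0.30) was -0.52 without replicate 1 of 3d/3d αMARCO and 0.03 without replicate 2. Without replicates 1 and 2 of that group, the differences were -0.68 and -1.78 for Il23a, -0.49 and -0.16 for Ebi3, and -1.16 and -0.14 for Il6. They were -0.15 and -0.48 for Il15ra and 0.08 and 0.25 for Il15.

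Markers of several other cell types moved in the same libraries as Il12b and the other called genes. Not all lists did so, and the classical monocyte markers that were called went in the opposite directions. The calls of those lists are given below, where the processing is described. T cell markers were called higher in WT in control TAMs for 8 of 8 genes (median log2 fold change 2.78, for example Cd8a 4.46 and Cd8b1 4.22) and lower with αMARCO in WT for 8 of 8 (median -3.16), and none of the 8 was at 0 in any library. Mature dendritic cell markers, which mark the migrating dendritic cells that make abundant IL-12 subunits, were called higher in WT control for 4 of 10 genes (median 2.11, for example Ccr7 3.59) and lower with αMARCO in WT for 7 of 10 (median -3.04, for example Ccl17 -4.45 and Ccr7 -3.60). None of these 10 was at 0 in any library. Their summed level was 1061 and 551 CPM in WT control, 184 and 127 CPM in 3d/3d control, 105 and 137 CPM in WT αMARCO, and 136 and 120 CPM in 3d/3d αMARCO. NK cell markers were called higher in WT control for 3 of 6 genes and lower with αMARCO in WT for 2 of 6. Type 1 dendritic cell markers were so called for 2 of 6 and 3 of 6. Nonclassical monocyte markers were called higher in WT control for 6 of 10 genes (median 1.7). With αMARCO in WT, 6 of these 10 were lower and 1 was higher (median -0.94). Their summed level was 2034 and 2129 CPM in WT control and 748 and 639 CPM in 3d/3d control. With αMARCO it was 1612 and 1756 CPM in WT and 923 and 1210 CPM in 3d/3d. Over all genes tested, 13% and 20.7% were called in these comparisons.

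Il12b was also set beside the summed level of these lists. In the WT control libraries the summed mature dendritic cell level was 1061 and 551 CPM, and Il12b was 26.1 and 23.2 CPM. As a percentage of the summed mature dendritic cell level, Il12b came to 2.46% and 4.21% in WT control, 2.13% and 1.75% in WT αMARCO, 0.443% and 0.560% in 3d/3d control, and 0.633% and 0.283% in 3d/3d αMARCO, so each of the 4 WT libraries was above each of the 4 mutant libraries. Within WT, both αMARCO percentages were below both control percentages. The mutant percentages rest on 5 to 19 counts of Il12b, and these differences were not tested. As a percentage of the summed T cell marker level Il12b was 30.9% and 23.6% in WT control and 28.2% and 21.3% in WT αMARCO. It was 5.08% and 9.46% in 3d/3d control, and 23.5% and 7.94% in 3d/3d αMARCO, so here the genotypes overlapped. The summed macrophage markers were 11560 and 12103 CPM in WT control, 8873 and 9188 CPM in WT αMARCO, 9854 and 12483 CPM in 3d/3d control and 8485 and 11848 CPM in 3d/3d αMARCO. The part that these other cells had in the results for the 8 genes was not tested, and in bulk samples fewer cells of a type and less RNA per cell cannot be told apart.

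**Figure D4:**
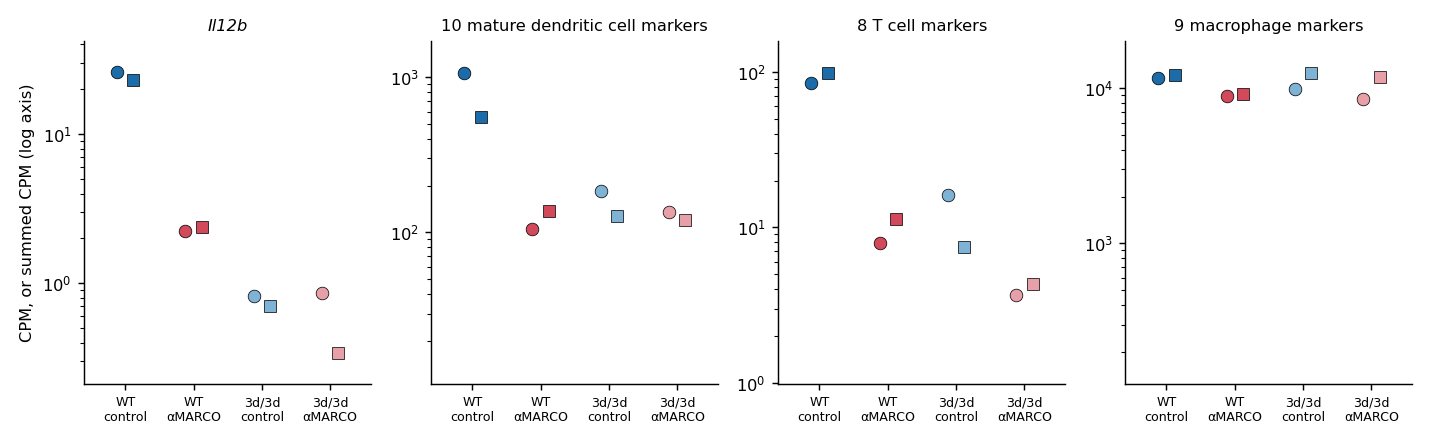
Il12b in CPM and the summed CPM of 10 mature dendritic cell, 8 T cell and 9 macrophage markers, on log axes that each span at least 2 orders of magnitude, with a point for each library (circles replicate 1, squares replicate 2). WT control was highest for Il12b and for both marker lists of other cell types, and macrophage markers lay between 8485 and 12483 CPM.

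Among the receptors for these cytokines, 2 of 7 tested were higher in WT control, namely Il12rb2, the IL-12 receptor chain of type 1 T and NK cells (log2 fold change 2.64, adjusted P = 0.00120), and the IL-27 receptor Il27ra (2.15, adjusted P = 0.00279). With αMARCO in WT these fell (Il12rb2 -2.53, Il27ra -1.52) together with Il2rb, the IL-15 receptor chain that signals in T and NK cells (-2.79, adjusted P = 2.23e-05). The list had medians of 0.33 and -0.31 in these comparisons, against 0.00 and -0.01 for all genes. The share of all genes called was 13% between the genotypes in control TAMs and 20.7% with αMARCO in WT. These shares also apply to the lists below. Of 12 kinases, STATs and SOCS genes, Stat4 (1.88), which signals below the IL-12 receptor, and the feedback inhibitors Socs3 (0.86) and Socs1 (0.67) were higher in WT control. Only Stat4 was called with αMARCO in WT (-1.56, adjusted P = 0.00580). This 1 of 12 is below the 20.7% of all genes, and the list median was -0.12.

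Of 14 transcription factors known to act on IL-12 family genes, 7 were higher in WT control and none lower, with a median of 0.55. The largest values were those of Batf3 (log2 fold change 2.25), Nfkbiz (1.19), which is needed for Il12b and Il6 induction, Irf1 (0.81) and the NF-κB gene Relb (0.77). With αMARCO in WT, Batf3 (-0.83) and Relb (-0.51) fell and Maf, a repressor of Il12b, rose (0.70, adjusted P = 0.000806), with a median of -0.06 for the list. These 3 of 14 are close to the background share of 20.7% in that comparison. Nfkbiz and Irf1 were not called with αMARCO in WT. Nfkbiz had 781 and 812 CPM in WT αMARCO, above the 530 and 673 CPM of WT control. Irf1 had 346 and 328 CPM against 313 and 406 CPM, which overlapped. Other cytokines that act on T cells were higher in WT control for Il10 (0.96) and Il1b (0.74) among 5 tested, and none of the 5 was called with αMARCO in WT. Lif, an IL-6 family ligand, was called in both comparisons (0.78 and -0.62), as 1 of 3 tested.

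Genes of the type 1 response to IL-12 were called higher in WT control for 3 of 8, namely Ifng (log2 fold change 4.26), its regulator Tbx21 (3.08) and Il18r1 (2.06). With αMARCO in WT, 7 of the 8 fell, with the largest values for Gzmb (-3.41), Ifng (-3.31) and Prf1 (-3.06), which encode granzyme B, interferon gamma and perforin. T and NK cells express these genes, and the T cell markers above moved in the same libraries, whose part in this result was not tested. Of the type 17 genes, 0 of 2 tested were called between the genotypes and the only gene tested with αMARCO in WT, Ccr6, fell (-2.54, adjusted P = 0.0411, on 1 to 36 counts per library). In the comparisons that hold 3d/3d αMARCO, edgeR called no gene at all (0.0%), and so none of these 7 lists.

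Across the 8 libraries, the gene whose log2 CPM followed Il12b most closely among 13688 genes was Snn (Pearson r = 0.996), with mean levels of 16.99 CPM in WT control, 2.49 in 3d/3d control, 4.36 in WT αMARCO and 2.01 in 3d/3d αMARCO. It was followed by Arhgef10 (0.984), Lipg, an endothelial lipase (0.981), Il15ra (0.979) and Nbn, a DNA repair gene (0.977). The genes most like Il15ra were Tcf7, a T cell transcription factor (0.996), Lipg (0.994) and Pde4d (0.992). Ceacam19 (0.973), Slc15a3 (0.968) and Klra2 (0.954) were most like Il27, and Psrc1 (0.989), Apobec3 (0.986) and Stard5 (0.975) most like Ebi3. For Il6 they were Nup107 (0.992), Hspa2 (0.979) and Usp1 (0.976), for Il23a Nbn (0.988), Enho (0.981) and Phf6 (0.979), and for Il15 Mylpf (0.955), Gm5913 (0.925) and Lrg1 (0.923). Between the members, Il12b correlated at 0.98 with Il15ra, 0.96 with Il23a, 0.88 with Ebi3, 0.86 with Il6, 0.47 with Il27 and -0.16 with Il15. These coefficients are descriptions over 8 libraries that share 4 group means and their depth.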

How the data were processed

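Poly-A RNA was sequenced from sorted TAMs in 4 groups of 2 libraries. Per the labels' processing notes, which list the tools fastp, HISAT2 2.0.5, featureCounts 1.5.0 and DESeq2 1.40.2 and the build GRCm38, the authors cleaned, aligned and counted the reads. The authors deposited 3 tables of 4 libraries each, in which the raw counts per gene carry no normalization. The deposited normalized signal (counts over a size factor set within each table), log2 fold changes and p-values are the authors' own DESeq2 results and were not used. The deposited FPKM were used only for a check of levels.

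Joining the tables on gene identifiers gave 26939 genes, and 0 of the 95230 counts shared between them differed. Genes absent from a table were set to 0 (11598 values), and where such genes could be checked they had at most 1 count. Of the gene positions matched by identifier, 95.7% equaled GENCODE positions on GRCm38. Each comparison was fitted on all genes of its own 4 libraries in R 4.3.3 with edgeR 4.0.16 (TMM, filterByExpr, robust quasi-likelihood test, Benjamini-Hochberg), at the adjusted P of 0.05 and log2 fold change of 0.5 used in the study, and the interaction on all 8. CPM used TMM factors over 8 libraries, TPM the gene lengths of the tables. Correlations were taken on log2 CPM (prior count 2) over genes of at least 1 CPM on average.

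Alternatives were DESeq2 1.42.0, its size factors, other filters, a block for the replicate number, a model of all 8 libraries, adjusted P alone and each library left out. Named genes were the 8 members, Unc93b1, at most 4 called members of each of 7 pathway and 11 marker lists in a comparison (largest absolute log2 fold change), and the genes most correlated with each member, 5 for Il12b and 3 for the others. Members and lists were chosen with earlier results of these data known. The marker lists not given in the report had in WT over Unc93b1 3d/3d control and in αMARCO over control in WT, respectively, for B cells 2 of 4 higher and 1 of 4 lower, for classical monocytes 2 of 6 lower and 2 of 6 higher, for neutrophils 0 of 6 and 1 of 4 lower, for epithelial cells 0 of 3 and 2 of 3 lower, for fibroblasts 2 of 5 lower and 3 of 5 lower, and for macrophages 1 of 9 higher with 2 lower and 4 of 9 lower. Single-cell data were not used here.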

Additional observations from a re-analysis of the deposited data

How the results depend on the processing

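Of the alternative values for single genes, 310 kept their direction and side of the threshold, 26 lost a call, 12 gained a call and 7 reversed. Of the 8 genes, the number called for WT over Unc93b1 3d/3d in control TAMs was 1 with all 8 libraries in 1 model (364 genes over the genome) and 4 to 5 with a library left out. Under αMARCO the genotypes differed for 0 to 2 of the 8 genes with a library left out (17 to 6366 genes over the genome, the highest without replicate 1 of Unc93b1 3d/3d αMARCO and 1252 without its replicate 2), and 214 genes were called by DESeq2, 107 without a filter and 108 with all 8 libraries. For αMARCO in WT the number of the 8 genes called was 2 with DESeq2, 1 with all 8 libraries and 2 to 3 with a library left out, with 164 genes over the genome for all 8 libraries, 5487 at adjusted P alone and 1940 (without WT αMARCO replicate 1) to 3951 with a library left out. For αMARCO in Unc93b1 3d/3d it was 0 to 1 with a library left out, with 60 genes over the genome by DESeq2, 174 without a filter, 1 with all 8 libraries and 1 to 5500 with a library left out (571 without Unc93b1 3d/3d αMARCO replicate 2). For the interaction it was 1 by DESeq2, 1 without a filter and 0 to 2 with a library left out, with 211, 152 and 0 to 6440 genes over the genome (the highest without Unc93b1 3d/3d αMARCO replicate 1, and 612 without its replicate 2). With a library left out, the lone library of its group is assumed to vary like the other groups. Reversed values were small, and are given with the range over libraries left out. Between genotypes under αMARCO, Il15 was -0.02 without WT αMARCO replicate 1 and ranged from -0.08 (without Unc93b1 3d/3d αMARCO replicate 1) to 0.10, and with αMARCO in WT it ranged from -0.13 to 0.01 (without WT control replicate 1). With αMARCO in Unc93b1 3d/3d, Il12b ranged from -1.13 to 0.17 (without αMARCO replicate 2), Ebi3 from -0.27 to 0.09 and Il6 from -0.98 to 0.06 (both without its replicate 1). The interaction for Il27 ranged from -0.52 to 0.03 (without Unc93b1 3d/3d αMARCO replicate 2). The cause was not tested.

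The replicate numbers give only 2 pairs per comparison and nothing says that they mark a shared mouse or day. Deviations of libraries with the same number correlated at -0.08 to 0.14 between groups. With 2 libraries per group, these values cannot tell whether such libraries shared a day or batch. With the replicate number as a block, the genotypes differed in 97 genes under αMARCO and αMARCO changed 5 genes in Unc93b1 3d/3d TAMs, none of them among the 8, and Il23a was not called with αMARCO in WT (-1.40, adjusted P = 0.0584).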
